A study of Bos taurus with 24 samples.

Results

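Genes on opposite strands of a chromosome can occupy the same stretch of DNA, so that part of each gene is antisense to the other. The arrangement is found throughout mammalian genomes: the 3′ ends can run into each other (tail to tail), the 5′ ends can cross over a shared start region (head to head), or a whole gene can lie inside another. Antisense transcripts can affect each other through collision of polymerases, through pairing of the RNAs or through chromatin, and many overlapping neighbours are simply expressed independently. In sequencing that does not keep the strand, a read from the shared stretch fits both genes.

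The gene pairs described here were chosen by position and level: both rows of a pair carried a gene symbol, lay on the same autosome (chromosomes 1 to 29), had opposite strands and spans that overlapped by 1 base or more, and each reached 1 CPM (count per 1000000 counts of the sample) in 12 or more of the 24 samples. There were 640 such pairs, made of 1192 genes, which was 9.6% of the 12416 autosomal genes that passed the level limit. The level of expression therefore chose the members and is given as a description. The changes with lipopolysaccharide (LPS) and the breed differences were not part of the rule. Since 12 samples is as many as 1 breed has, a gene could pass through the breed or the hours in which it was higher.

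The samples were dermal fibroblasts, the collagen-producing cells of the skin, cultured from 4 Angus and 4 Holstein heifers, a beef and a dairy breed. Each culture was exposed to LPS, which comes from the outer membrane of Gram-negative bacteria, at a concentration of 100 ng/ml and sampled at 0, 2 and 8 h in medium with fetal bovine serum and an insulin, transferrin and selenium supplement; duplicate wells were pooled. This gave 6 groups of 4 samples, with the same animals at each hour. There were no untreated cultures at 2 or 8 h, so the time in culture and the exposure to LPS cannot be told apart.

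All 9 fibroblast markers fixed for the check (COL1A1 and VIM among them) passed the level limit, with a summed level of 37440 to 123800 CPM, whereas 6 leukocyte markers summed to 2.08 to 5.2 CPM, 5 keratinocyte markers to 0.406 to 13.7, 4 endothelial markers to 0.945 to 3.51, 4 melanocyte markers to 1.47 to 3.47 and 3 muscle markers to 16.02 to 44.4. The files held 51014538 to 104406293 counts per sample. In 4 samples (Angus 4, Holstein 2 and Holstein 4 at 0 h, and Angus 3 at 2 h) the collagen gene COL1A1 received 1 count for every 66.2 to 67.1 covered bases, against 112 to 119 in the other 20. The paired genes held 15.2% to 18.1% of all counts in those 4 samples and 9.98% to 12.2% in the others, so results that rest on them are given with and without them where they differ.

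The overlaps ranged from 1 base (EIF3M and CCDC73) to 110670 bases, with a median of 1093.5. In 276 pairs (43.1%) one gene lay wholly inside the other, with a median overlap of 3381 bases. Tail to tail pairs numbered 253 (39.5%), with a median overlap of 598 bases, or 5.94% of the shorter gene. Head to head pairs numbered 111 (17.3%), with a median overlap of 483 bases, or 6.22% of the shorter gene. The overlap covered under 10% of the shorter gene in 220 pairs, 10% to under 50% in 86, 50% to under 100% in 58 and all of it in 276. These shares are of whole gene spans, introns included, so they are not shares of the reads.

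**Figure D1:**
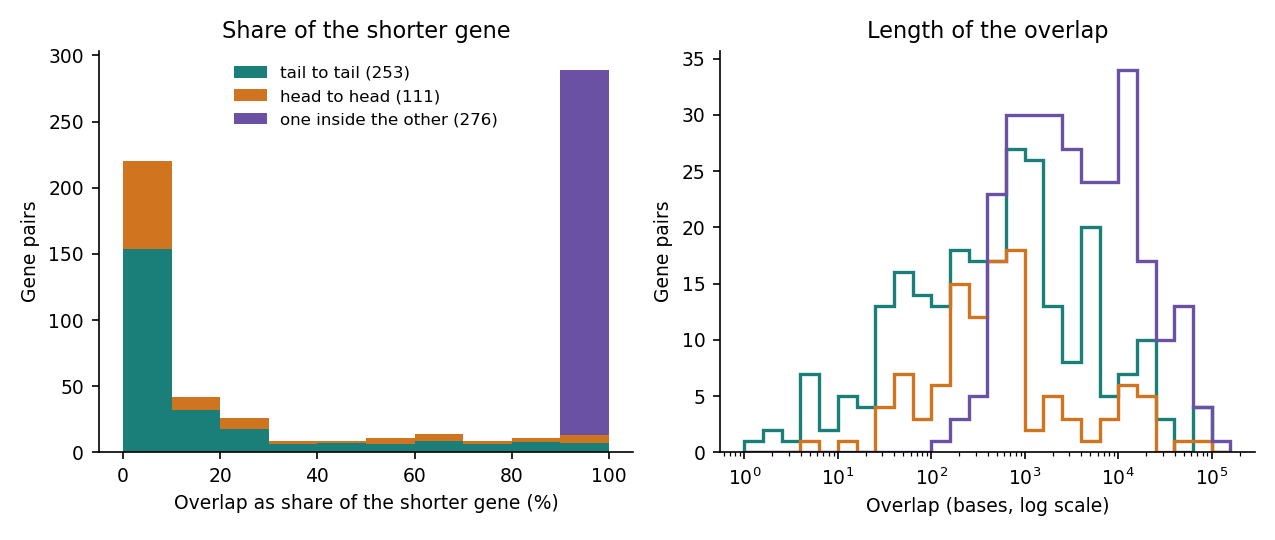
Overlap of the 640 pairs, by arrangement. The left panel counts pairs by the share of the shorter gene that overlaps (%), and the right panel by the length of the overlap in bases on a log axis; 220 pairs fall under 10% and 276 at 100%.

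Most members stood alone with their partner. The pairs formed 552 separate loci, of which 497 held a single pair, and 63 genes took part in 2 or more pairs. BOLA, the symbol of the cattle major histocompatibility complex on chromosome 23, had the most partners, 11, because its row spanned a long stretch of that region. Uncharacterized genes with a LOC symbol were common: 276 pairs held 1, 10 held 2 and 354 held none.

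The limits of the rule cut through a continuum. Of 1302 overlapping pairs on opposite strands at any level, 49.2% passed the level limit. MGC127055 and LOC100137867 were just inside it, since LOC100137867 reached 1 CPM in 12 samples, and AGMAT with DNAJC16 was just outside, since AGMAT reached it in 11. SELO and TUBGCP6 shared 2 bases and were kept, whereas AHSA2 with USP34, POMT1 with UCK1 and CDK10 with SPATA2L were directly adjacent, with 0 shared bases, and were not.

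Several pairs that are textbook cases of overlap in mammals were among the members. The thyroid hormone receptor gene THRA and the circadian repressor gene NR1D1 overlapped tail to tail by 1101 bases. The growth factor gene FGF2 and its antisense neighbour NUDT6 shared 5832 bases, the repair gene ERCC1 and the RNA polymerase I subunit gene CD3EAP 167, SURF2 and SURF4 109, and the mismatch repair gene MSH6 and FBXO11 23. TYMS and ENOSF1 did not overlap in these coordinates and were 662 bases apart.

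Gene models have changed since the annotation used for counting (UMD v3.1). In a later RefSeq annotation of the cattle genome (assembly ARS-UCD2.0, used only for names and neighbours) 968 of the 1192 members could be matched, among them 106 of the 283 LOC genes. Both genes were matched in 407 pairs, and 304 of these (74.7%) still overlapped. The share was 169 of 191 for tail to tail pairs, 42 of 63 for head to head pairs and 93 of 153 for nested pairs. Of the pairs described below, RGS5 with RGS4, LIFR with EGFLAM, BOLA with IER3 and EPHB4 with ZAN no longer overlapped there.

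For nested pairs the files show how much of the outer gene's signal came from inside the inner gene, since they give a mean coverage (reads over each base) beside the counts. Covered bases are this coverage times the length of the row, divided by the scaled library size in units of 1000000 counts (scaled covered bases). A median of 34.9% of the outer gene's covered bases lay inside the inner gene, with a range of 0.8% to 100%. The inner gene held over 50% of it in 105 pairs and over 90% in 31. In 275 of the 276 pairs the inner gene's covered bases did not exceed the outer gene's in any sample by more than the rounding of the coverage allows; the exception was IER3 inside BOLA, in 4 samples. Without that allowance TXNIP, LOC100296205 and C11H9orf142 also exceeded the genes around them, in 4, 2 and 1 samples.

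The counts did not nest in the same way. The inner gene had more counts than the gene around it in all 24 samples in 64 pairs and in some samples in 31. Among the 31 pairs with over 90% of the outer coverage inside the inner gene, 30 had more counts for the inner gene in every sample, with a median ratio of 2.09. PTGS2, for example, held 99.9% of the coverage of the LOC100138376 row around it, and had 1.59 counts for each count of that row. TXNIP held 100% of the coverage of LOC100848155 and had 7.94 counts for each of its counts. Whether reads were counted by strand is not given in the sources used here, so reads from the stretch that a gene shares with its antisense partner cannot be told apart.

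**Figure D2:**
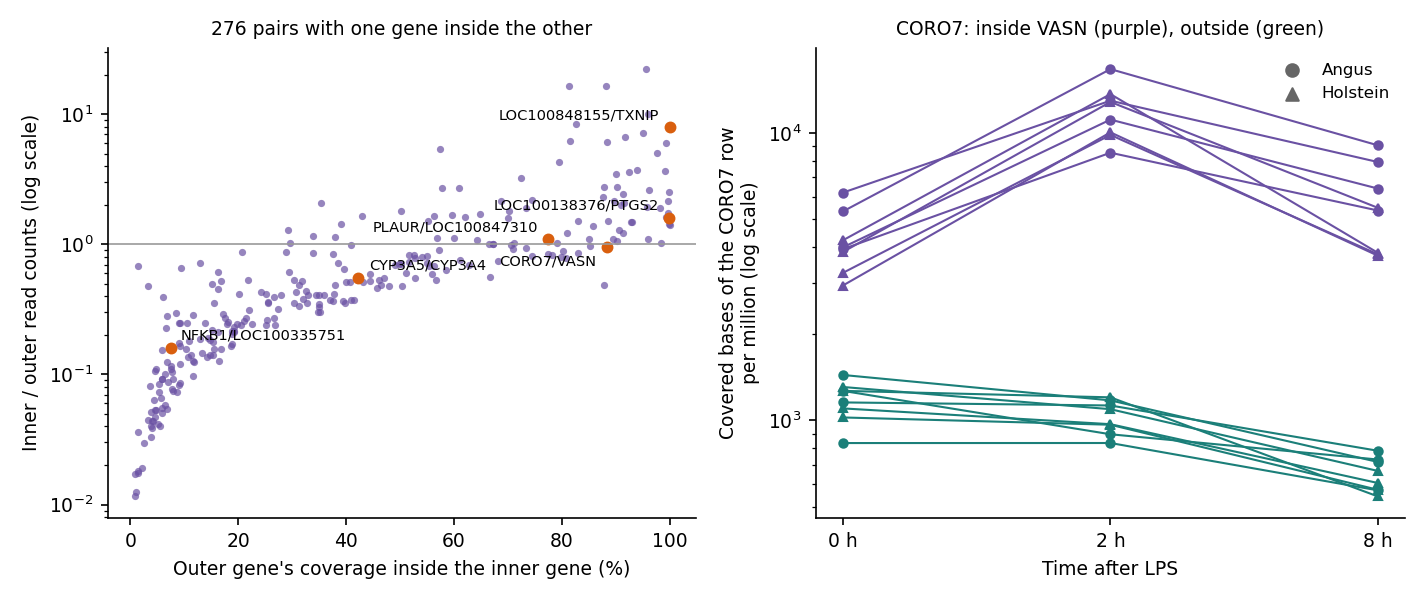
Nested pairs. The left panel plots, for 276 pairs, the share of the outer gene's coverage that lies inside the inner gene (%) against the ratio of inner to outer counts (log axis), with 6 pairs named; the right panel plots the covered bases of the CORO7 row, scaled per 1000000 counts (log axis), inside and outside VASN for each of 8 animals at 0, 2 and 8 h, where the part inside rises at 2 h and the part outside does not.

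Exposure to LPS for 2 h changed 37 of the 1188 members that could be tested, 29 up and 8 down. A gene was called changed when edgeR's likelihood-ratio test gave an adjusted p below 0.05, the fold change was 2 or more and the average level was above 1 CPM; 8 samples at each hour were compared. The share called was 3.11% of the members, against 2.82% of all 20157 rows tested. In 14 pairs both genes were called, and in 12 only 1 was. Leaving out the 4 samples with other counting gave 36 members and 12 pairs. At 8 h, 22 of 1190 members were called (1.85%, against 1.42% of 20368 rows), 18 up and 4 down, with both genes called in 6 pairs and 1 in 10. These became 20 members and 6 pairs when the 4 samples were left out. Here and in every comparison, fewer cells that express a gene and less of its RNA per cell cannot be told apart, since the samples are bulk cultures.

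Both called genes of a pair always moved the same way. No pair was called in opposite directions in any comparison by edgeR's likelihood-ratio test, its quasi-likelihood test or DESeq2. These tests used the same counts. Among the 26 pairs with both genes called for LPS or breed, 22 overlapped by 50% or more of the shorter gene. Where both rows of a pair can count the same reads, an opposite call is hardly possible. For such pairs its absence does not show that the genes changed together, and the part of shared reads was not tested. With an unadjusted p below 0.05 for both genes, 80 pairs moved together and 7 apart at 2 h, and 88 and 2 at 8 h. Over all pairs tested, changed or not, the genes had the same sign in 72.3% at 2 h and in 75.9% at 8 h.

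The agreement differed with the share of the shorter gene that overlapped. Within each animal, the correlation over the 640 pairs between the log2 changes of the 2 genes was 0.66 ± 0.06 at 2 h (Pearson's r, mean ± SD over 8 animals) and 0.62 ± 0.09 at 8 h. It describes pairs that share a library and sometimes a gene, and it is not a test. At 2 h it was 0.38 ± 0.08 for pairs sharing under 10% of the shorter gene, 0.46 ± 0.14 for 10% to under 50%, 0.92 ± 0.05 for 50% to under 100%, and 0.74 ± 0.10 for nested pairs. At 8 h the same values were 0.46, 0.38, 0.91 and 0.67.

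Neighbours without an overlap agreed less. Opposite-strand pairs separated by a gap of up to 1000 bases (964 pairs at the same level limit) had an r of 0.18 ± 0.02 at 2 h and 0.16 ± 0.07 at 8 h, below that of the overlapping pairs in 8 of 8 animals at both hours. Even the pairs with under 10% overlap were above them in 8 of 8 animals at 2 h and 7 of 8 at 8 h. Overlapping pairs on the same strand (264 pairs) were at 0.53 ± 0.07 and 0.53 ± 0.05.

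**Figure D3:**
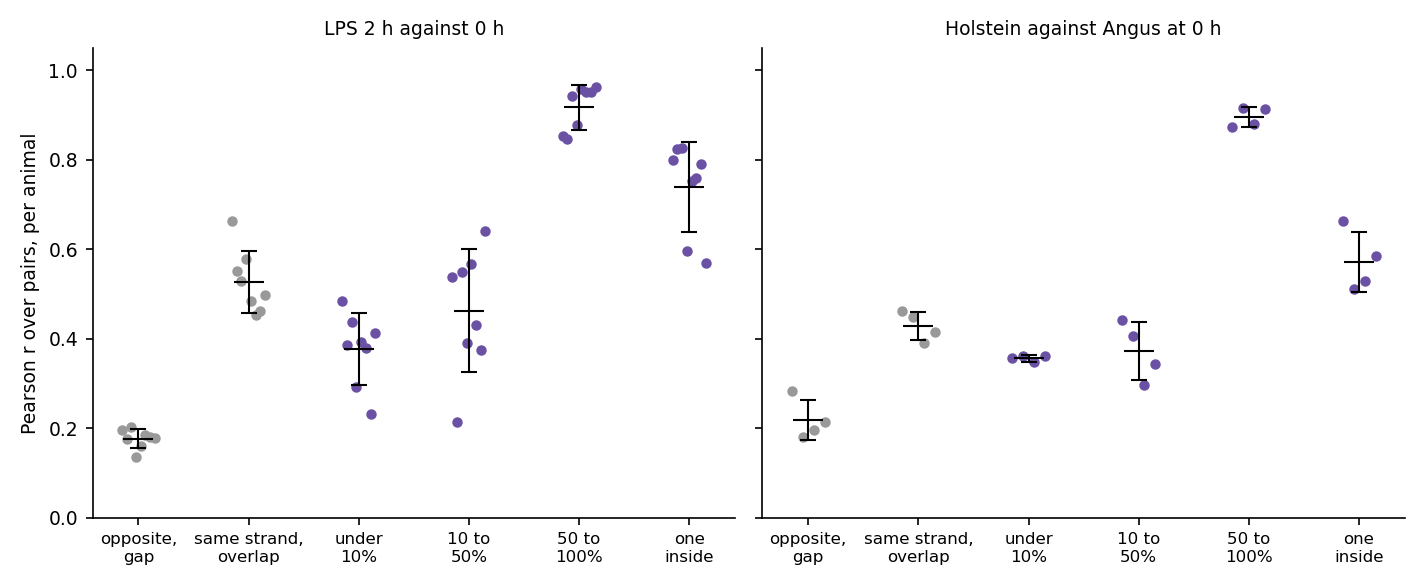
Agreement between the genes of a pair, per animal. Each point is Pearson's r over pairs between the log2 changes of the 2 genes in 1 animal (left, 8 animals, LPS 2 h against 0 h) or between a Holstein animal and the mean of the Angus animals (right, 4 animals, 0 h); bars are mean ± SD. Grey groups are comparison pairs without an opposite-strand overlap, and purple groups are the members by share of the shorter gene, highest at 50% to under 100%.

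Among nested pairs the agreement was highest where most of the outer gene's coverage lay inside the inner gene. At 2 h the r of the changes was 0.50 ± 0.12 where that share was under 10% (59 pairs), 0.48 ± 0.22 at 10% to under 50% (112 pairs), 0.71 ± 0.11 at 50% to under 90% (73 pairs) and 0.99 ± 0.01 at 90% or more (32 pairs). In the 249 nested pairs where enough coverage lay outside, the r of the coverage changes was 0.72 ± 0.09 for inner against whole outer gene and 0.47 ± 0.10 for inner against the outer gene without that stretch. At 8 h these were 0.68 ± 0.07 and 0.39 ± 0.06.

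Levels are TMM-scaled CPM, which are not divided by gene length, so that they compare samples and not genes. Over the 8 samples of an hour they are given as the median with the lowest and the highest sample in parentheses.

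Inflammatory genes had the largest increases among the members at 2 h. PTGS2, which encodes the inducible cyclooxygenase of prostaglandin synthesis, lies on the minus strand of chromosome 16, 69263776 to 69271399 (UMD v3.1, the build of all positions here), inside LOC100138376. Its level was 6.73 (5.29 to 14.04) CPM at 0 h, 182 (100.1 to 609) at 2 h and 59.4 (18.2 to 140.5) at 8 h. No sample at 2 or 8 h overlapped those at 0 h.

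The log2 change of PTGS2 was 4.84 ± 0.34 (SE, adjusted p = 1.18e-31) at 2 h and 3.09 ± 0.34 (SE, adjusted p = 1.84e-14) at 8 h. LOC100138376 rose from 4.25 (3.31 to 9.29) CPM to 115 (61.6 to 373) at 2 h, a log2 change of 4.81 ± 0.34 (SE, adjusted p = 2.78e-31). The 2 rows thus gave nearly the same value, and too little coverage lay outside PTGS2 to measure the outer gene by itself.

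IRF1, the interferon regulatory factor that LPS induces early, overlapped LOC100848038 tail to tail by 5932 bases (chromosome 7, 23235653 to 23243672, plus strand), or 73.97% of IRF1. It rose from 3.69 (2.78 to 5.83) CPM to 43.5 (9.52 to 96.2) at 2 h and 16.7 (7.91 to 25.96) at 8 h. The log2 change was 3.63 ± 0.37 (SE, adjusted p = 7.57e-17) at 2 h for IRF1 and 3.62 ± 0.36 (SE, adjusted p = 2.31e-17) for LOC100848038, which rose from 8.03 (6.09 to 12.5) to 95.3 (21.01 to 209) CPM. Both genes rose in 8 of 8 animals and neither overlapped its 0 h range.

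NFKB1, a subunit of the NF-kB transcription factor, carries LOC100335751 inside its span (chromosome 6, 23557313 to 23670155). NFKB1 went from 14.1 (12.6 to 15.1) CPM to 44.9 (25.3 to 79.4) at 2 h, a log2 change of 1.84 ± 0.19 (SE, adjusted p = 5.43e-19). LOC100335751 went from 2.39 (2.02 to 3.27) to 6.58 (4.61 to 12.4), a log2 change of 1.64 ± 0.20 (SE, adjusted p = 3.23e-13). Only 7.5% of the NFKB1 coverage lay inside the inner gene, and without it the rise was as large, from a mean of 1657 to 5949 scaled covered bases (8 of 8 animals, exact paired permutation test p = 0.00781, the smallest that 8 animals allow).

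PLAUR encodes the receptor of the urokinase plasminogen activator and surrounds LOC100847310 (chromosome 18, 52202332 to 52215613, minus strand). PLAUR rose from 64.2 (35.6 to 86.8) CPM to 248 (222 to 333) at 2 h and was at 151 (125 to 214) at 8 h, log2 changes of 2.05 ± 0.16 (SE, adjusted p = 4.27e-32) and 1.38 ± 0.17 (SE, adjusted p = 5.13e-13). LOC100847310 changed by 2.09 (adjusted p = 2.88e-31) at 2 h. It held 77.5% of the PLAUR coverage, and the other part rose from a mean of 1455 to 5607 scaled covered bases.

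TXNIP, which inhibits thioredoxin and glucose uptake, and its partner had the largest decreases at 2 h. It lies inside LOC100848155 (chromosome 3, 21489097 to 21493258, plus strand) and fell from 74.6 (36.8 to 125) CPM to 11.8 (9.18 to 26.6) at 2 h, then stood at 72.04 (46.4 to 110) at 8 h. The log2 change was -2.45 ± 0.31 (SE, adjusted p = 3.68e-12) at 2 h and -0.04 (adjusted p = 0.962) at 8 h. LOC100848155 had -2.5 (adjusted p = 2.27e-09) at 2 h. The ranges at 0 and 2 h did not overlap for either gene.

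A list of the inflammatory response held 51 NF-kB and cytokine genes. Only 4 were members, NFKB1, IRF1, PTGS2 and IER3, and all 4 rose at both hours, beside 26 of 39 tested genes of the whole list at 2 h (median log2 change 1.84) and 21 of 38 at 8 h (1.27); none of the tested list genes fell. Of 35 immediate-early genes none was a member; 10 of the 31 tested rose and 2 fell at 2 h. Of 4 members among the extracellular matrix genes, TIMP3, SPARC, FBN1 and COL1A1, only COL1A1 was called (lower at 8 h), the only 1 of 44 tested genes of that list. The 3 interferon-stimulated members, PARP9, DTX3L and STAT2, are treated with the breed by LPS results.

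In 26 pairs both genes were called in at least 1 comparison of LPS or breed. In 22 of them the shorter gene overlapped by 50% or more, and 19 of the 26 were nested; 19 held a LOC gene. The other 4 pairs shared 0.65% to 5.98% of the span of the shorter gene. How much of their reads lay in the overlap was not measured. LOC100847448 and PIK3R1, whose product is the regulatory subunit of phosphoinositide 3-kinase, shared 1188 bases tail to tail (1.47% of the shorter). PIK3R1 fell from 46.5 (35.1 to 58.5) CPM to 21 (15.4 to 27.4) at 2 h and LOC100847448 from 53.2 (39.95 to 61.2) to 22.5 (18.8 to 32.7). The log2 changes were -1.22 ± 0.13 (SE, adjusted p = 1.71e-19) and -1.2 ± 0.12 (SE, adjusted p = 9.2e-20), lower in 8 of 8 animals, and at 8 h both stood at -0.16 (adjusted p 0.476 and 0.474).

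LIFR, the receptor of leukaemia inhibitory factor, and EGFLAM, an extracellular matrix protein, shared only 322 bases (0.655%). LIFR rose from 2.42 (0.597 to 2.98) CPM to 5.96 (4.89 to 7.36) at 2 h and EGFLAM from 3.59 (2.93 to 3.85) to 11.3 (9.35 to 13.8). Neither range at 2 h overlapped that at 0 h. The log2 changes were 1.49 ± 0.26 (SE, adjusted p = 7.52e-07) and 1.72 ± 0.10 (SE, adjusted p = 2.65e-58). These 2 pairs, and CORO7 with VASN, were chosen after their values were seen.

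The remaining pairs with both genes called at 2 h were nested, or nearly so. PHLDB1 and LOC100297270 rose by 1.31 and 1.34 on the log2 scale. BHLHE40, a transcriptional repressor of the circadian clock, and LOC100294865 rose by 1.59 and 1.48. LOC100847896 lay inside both TSPAN18 and TP53I11, and the 3 rose by 1.61, 1.28 and 1.49 in that order. CACNB2, a calcium channel subunit, fell by 1.11 and LOC100847770 inside it fell by 1.61. These pairs, chosen after their values were seen, complete the calls at 2 h. Without the 4 samples LOC100847896 had a change of 1.66 (adjusted p = 0.0756).

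**Figure D4:**
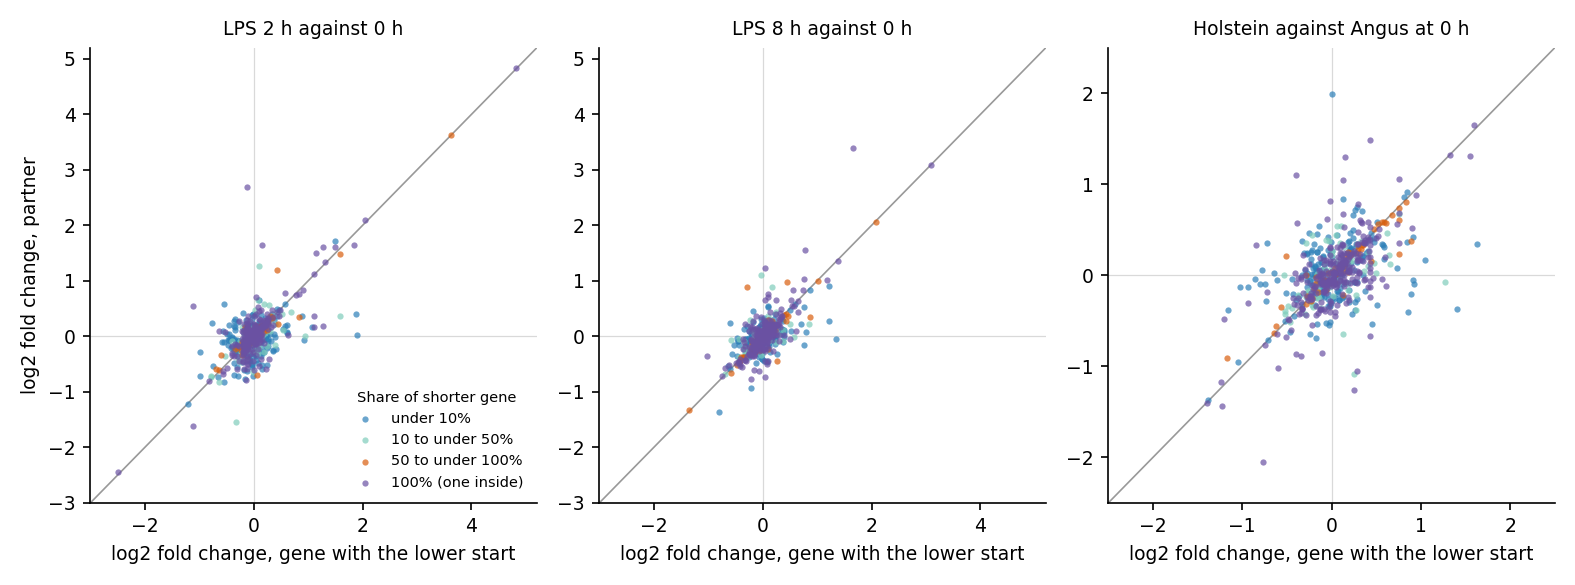
Log2 fold changes of the 2 genes of each pair at 2 h and at 8 h after LPS and between the breeds at 0 h. Each point is a pair, coloured by the share of the shorter gene that overlaps, and the grey line marks equal changes; pairs sharing 50% to under 100% lie along it.

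Where a count of an outer gene was called, the coverage outside the inner gene did not always follow. At 2 h, 11 outer genes were called; 8 had enough coverage outside, and in 6 of these it changed by 1 or more on the log2 scale in the same direction. One of the 2 others was CORO7. At 8 h, 5 outer genes were called, 4 could be measured outside and 3 changed by 1 or more, the other being CYP3A5. This way of measuring the outer gene was chosen after the data were seen.

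CORO7, a coronin of the Golgi, surrounds VASN, a membrane protein that binds transforming growth factor beta (chromosome 25, 3508280 to 3561345). By counts CORO7 rose from 55.5 (44.1 to 79.8) CPM to 125 (91.5 to 175) at 2 h, a log2 change of 1.15 ± 0.15 (SE, adjusted p = 1.05e-12), and VASN from 43.1 (31.9 to 67.5) to 129.6 (91.7 to 185), 1.5 ± 0.17 (SE, adjusted p = 1.38e-16). Outside VASN, which held 88.4% of its coverage, CORO7 had 834 to 1439 scaled covered bases at 0 h and 835 to 1203 at 2 h, and was higher in 1 of 8 animals. The mean log2 change there was -0.18 ± 0.17 (SD, exact paired permutation test, 2-sided p = 0.0156).

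The cytochrome P450 genes CYP3A4 and CYP3A5, which oxidize drugs and steroids, changed at 8 h. CYP3A4 lies inside CYP3A5 (chromosome 25, 37125929 to 37175162, minus strand), and the 2 are close relatives, so reads could be split between them uncertainly. CYP3A4 went from 6.28 (3.96 to 18.2) CPM to 95.01 (11.3 to 204), and CYP3A5 from 38.05 (35.5 to 48.3) to 125 (43.2 to 255). The log2 changes at 8 h were 3.4 ± 0.49 (SE, adjusted p = 3.51e-08) and 1.65 ± 0.29 (SE, adjusted p = 1.4e-06), higher in 8 of 8 animals for both genes.

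The share of the CYP3A5 coverage inside CYP3A4 went from 8.1% to 67.5% over the samples. Outside it, CYP3A5 rose from a mean of 2933 to 3925 scaled covered bases, in 7 of 8 animals (exact paired permutation test p = 0.0156), a mean log2 change of 0.39 ± 0.36 (SD).

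In other pairs 1 gene was called and its partner was not. IL15RA, the alpha chain of the interleukin 15 receptor, rose from 8.92 (7.01 to 13.1) CPM to 34.98 (28.1 to 42.3) at 2 h and was at 23.1 (19.6 to 30.4) at 8 h. Its tail to tail partner FBXO18, a DNA helicase, shared 1410 bases (3.598%) and stood at 75.4 (65.4 to 82.6), 75.8 (64.4 to 85.8) and 71.8 (64.6 to 78.9). The log2 changes at 2 h were 1.9 ± 0.15 (SE, adjusted p = 1.29e-32) and 0.02 (adjusted p = 0.932).

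NR1D1 fell from 12.3 (10.7 to 13.3) CPM to 4.18 (2.33 to 5.46) at 2 h, with no overlap of the ranges, and was at 10.4 (7.14 to 16.8) at 8 h. THRA, with 15.1% of NR1D1 in common, fell less, from 15.4 (13.2 to 17.3) to 12.2 (11.2 to 14.1) and 10.7 (7.95 to 12.9). The log2 changes were -1.55 ± 0.16 (SE, adjusted p = 1.39e-19) and -0.33 ± 0.09 (SE, adjusted p = 0.00249) at 2 h. At 8 h they were -0.07 (adjusted p = 0.873) and -0.59 (adjusted p = 3.91e-06), and THRA then lay below its 0 h range in all 8 samples. Whether the changes differed between the hours was not tested.

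CD3EAP rose from 7.77 (6.87 to 10.3) to 16.3 (15.2 to 21.1) CPM at 2 h, a log2 change of 1.07 ± 0.10 (SE, adjusted p = 9.9e-22), whereas ERCC1, which shared 6.44% of it, changed by 0.17 (adjusted p = 0.232). MSH6 fell by less than 2-fold (log2 -0.56, adjusted p = 1.41e-05) beside FBXO11 (log2 0.1, adjusted p = 0.345). SURF4, a cargo receptor of the secretory pathway, had 0.38 (adjusted p = 6.3e-06) beside SURF2 (log2 0.14, adjusted p = 0.634). FGF2 and NUDT6 did not pass the test at either hour, with log2 changes of 0.14 and 0.14 at 2 h and -0.22 and -0.24 at 8 h.

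Nested pairs could also differ. IER3, an early response gene inside the BOLA row, rose from 21.9 (19.4 to 32.4) to 139 (56.7 to 319) CPM at 2 h (log2 2.69, adjusted p = 6.18e-18), while BOLA was at 139 (90.5 to 193) and 128 (62.3 to 167) (log2 -0.13, adjusted p = 0.741). PRICKLE1, a planar polarity gene, fell from 5.55 (2.83 to 9.12) to 2.57 (1.08 to 3.89) (log2 -1.12, adjusted p = 0.0017), and LOC100847111 inside it was at 1.13 (0.585 to 2.83) and 1.47 (0.896 to 4.24) (log2 0.55, adjusted p = 0.332). Outside the inner gene the fall of PRICKLE1 was as large, from a mean of 1840 to 879 scaled covered bases, lower in 8 of 8 animals. The log2 change of PRICKLE1 without the 4 samples was -0.9 (adjusted p = 0.0256), under the fold limit.

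Changes in opposite directions appeared only when the fold limit was left out. With an adjusted p below 0.05 for both genes, 55 pairs moved together and 4 apart at 2 h, and 31 and 0 at 8 h. The quasi-likelihood test gave 57 and 5 at 2 h and 35 and 0 at 8 h, and DESeq2 gave 66 and 7, and 58 and 0. With the animal as a block, more pairs passed in both ways: 152 moved together and 22 apart at 2 h, and 151 and 9 at 8 h. Leaving out the 4 samples gave 44 and 1 at 2 h and 22 and 0 at 8 h. The 4 opposite pairs of the likelihood-ratio test with all samples, chosen after their values were seen and given by their log2 changes, were SQSTM1, the autophagy receptor p62 (0.58), with C7H5orf45 (-0.55), PCIF1 (-0.35) with ZNF335 (0.32), CTU2 (-0.36) with the mechanosensitive channel gene PIEZO1 (0.28), and FTSJ3 (0.42) with DDX42 (-0.19). All 4 were tail to tail and shared 0.505% to 5.94% of the shorter gene.

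**Figure D5:**
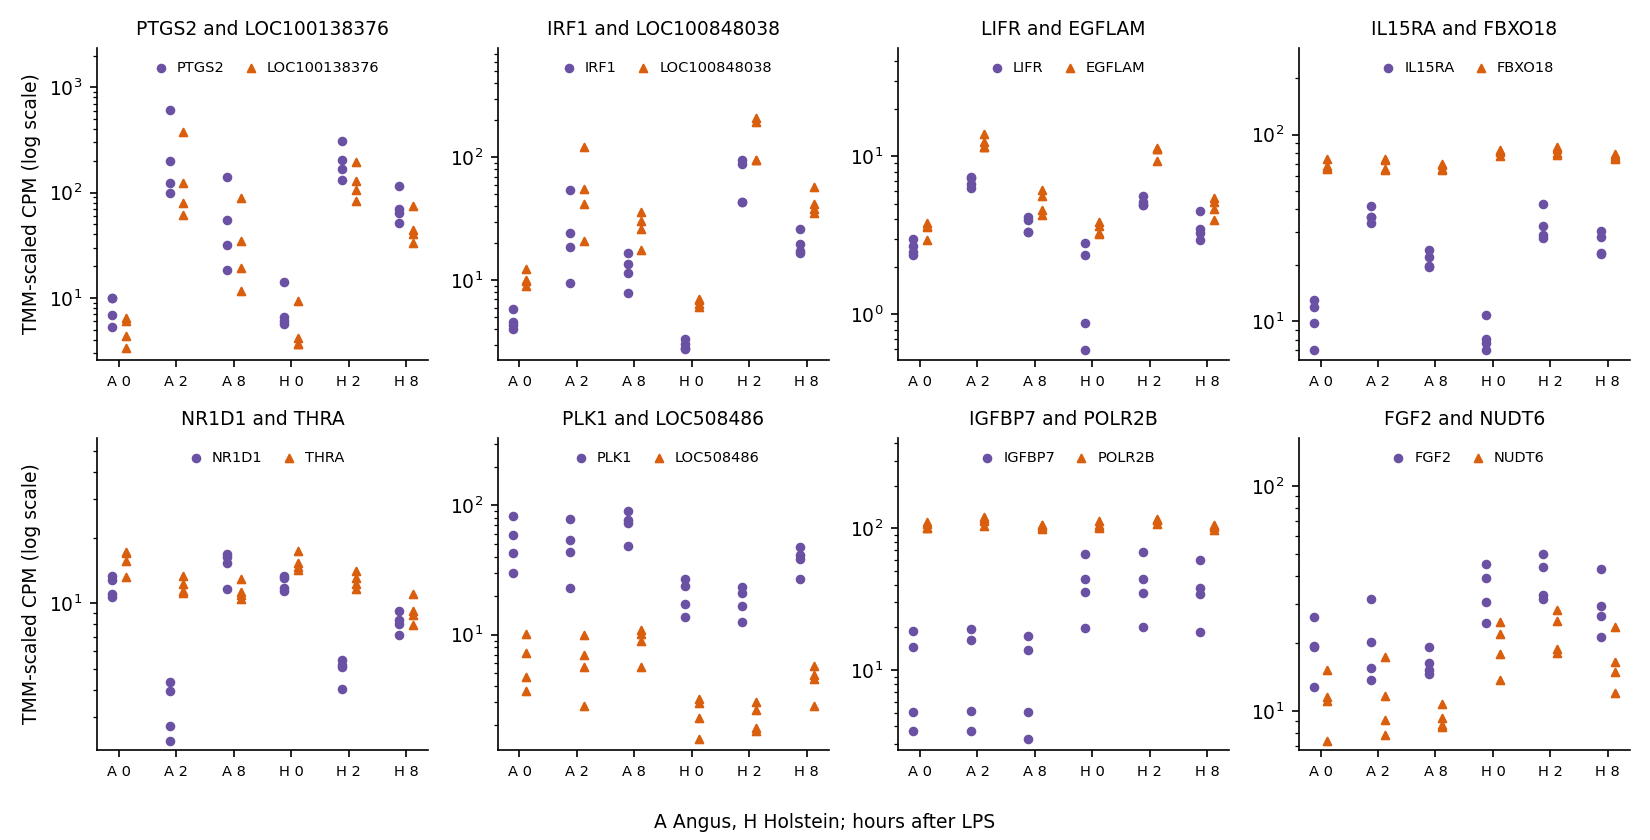
Levels of 8 pairs in all 24 samples. Each panel gives TMM-scaled CPM on a log axis for the 4 samples of each group (A Angus, H Holstein, hours after LPS), with 1 gene as circles and its partner as triangles; PTGS2, IRF1 and LIFR move with their partners, whereas the levels of IL15RA, NR1D1 and IGFBP7 do not run parallel to those of their partners.

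Between the breeds at 0 h, 28 of 1187 members were called, 13 higher and 15 lower in Holstein (2.36%, against 3.81% of 20385 rows), with both genes called in 7 pairs and 1 in 16. At 2 h, 34 of 1182 were called (2.88%, against 4.45% of 20184 rows), with 8 and 21 pairs. At 8 h, 22 of 1189 were called (1.85%, against 3.24% of 20679 rows), with 4 and 15 pairs. The share of members was below that of all rows at each hour.

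The counts depended on few samples. Without the 4 samples with other COL1A1 counting, 4 members and 1 pair were called at 0 h (0.338% of members, against 1.27% of all rows in the same fit) and 61 members and 15 pairs at 2 h (5.17%, against 6.44%); no such sample was at 8 h. Without Angus 3 the members called were 50, 61 and 50 at 0, 2 and 8 h. These were 4.22%, 5.17% and 4.21% of members, against 5.57%, 6.44% and 5.52% of all rows. Without Angus 4 they were 18, 18 and 10 (1.52%, 1.53% and 0.842%, against 2.55%, 3.09% and 2.19%). At 8 h they were 14 without Angus 1 (1.18%, against 2.43%) and 13 without Holstein 4 (1.09%, against 2.43%). The share of all rows called moved the same way as that of the members in each of these fits.

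The agreement within pairs varied less. The r over pairs of each Holstein animal's difference from the Angus mean came to 0.51 ± 0.04, 0.52 ± 0.05 and 0.53 ± 0.04 at 0, 2 and 8 h (SD, 4 animals), and to 0.510, 0.525 and 0.526 without the 4 samples. At 0 h it was 0.36 ± 0.01 for pairs sharing under 10%, 0.37 ± 0.07 for 10% to under 50%, 0.90 ± 0.02 for 50% to under 100% and 0.57 ± 0.07 for nested pairs. The gap pairs were at 0.22 ± 0.05, 0.20 ± 0.02 and 0.23 ± 0.05 at 0, 2 and 8 h. The 4 values at an hour are differences from the same Angus mean, so they are not independent and their SD is a description. The genes of a pair had the same sign in 71.1%, 68.6% and 74.1% of pairs. The gap pairs were at 57.7%, 57.3% and 59.0%, and the overlapping pairs on the same strand at 66.8%, 65.1% and 66.7%.

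PKD2L1, an ion channel gene, and LOC783804 inside it were called at all 3 hours. PKD2L1 stood at 15.2, 13.9, 7.56 and 16.5 CPM in the Angus samples and 6.17, 4.63, 6.18 and 3.09 in the Holstein samples at 0 h. LOC783804 stood at 10.3, 10.3, 5.02 and 11.4 and 4.301, 3.31, 4.19 and 2.12. Angus 3 was the lowest Angus sample for both genes, and the breeds did not overlap for either gene at 0 h. The log2 differences (Holstein over Angus) were -1.39 ± 0.29 (SE, adjusted p = 0.000159) and -1.4 ± 0.30 (SE, adjusted p = 0.000298) at 0 h, and -1.1 (adjusted p = 0.00116) and -1.19 (adjusted p = 0.000378) at 8 h. Without the 4 samples the values at 0 h were -0.98 (adjusted p = 0.124) and -1.01 (adjusted p = 0.165).

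The mitotic kinase gene PLK1 shared 631 bases with LOC508486 tail to tail (chromosome 25, 21587069 to 21597613). PLK1 was at 58.95, 42.5, 29.9 and 83.5 CPM in Angus and 23.9, 17.3, 26.96 and 13.8 in Holstein at 0 h. LOC508486 was at 7.26, 4.73, 3.64 and 10.1 and 2.94, 2.26, 3.16 and 1.55, with Angus 4 the highest and Holstein 4 the lowest sample for both genes. The log2 differences were -1.38 ± 0.32 (SE, adjusted p = 0.000737) and -1.37 ± 0.35 (SE, adjusted p = 0.00272). Without the 4 samples they were -0.79 (adjusted p = 0.199) and -0.78 (adjusted p = 0.358) at 0 h.

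A second cell cycle member was lower in Holstein. UHRF1, which maintains DNA methylation, had a log2 difference of -1.2 ± 0.31 (SE, adjusted p = 0.00302) at 0 h and -1.02 (adjusted p = 0.00312) at 2 h, at 75.9, 64.3, 42.2 and 122 CPM in Angus and 43.3, 33.2, 32.8 and 21.8 in Holstein at 0 h. Holstein 1 was above Angus 3, so the groups overlapped, and without the 4 samples the value was -0.68 (adjusted p = 0.293). LOC100848256 inside UHRF1 was not called (log2 -0.48, adjusted p = 0.138). Of the 54 tested rows of a DNA replication and cell cycle list 17 were lower at 0 h and none was higher. Its members are UHRF1, PLK1, CDT1 and GINS3, of which the first 2 were called at 0 and at 2 h. CDT1 and GINS3 stood at -0.86 and -0.74 at 0 h (adjusted p 0.0401 and 0.0457), under the fold limit. The count of this list and the values of CDT1 and GINS3 are with all samples, and are not given here without the 4. Over all rows, 777 were called at 0 h with all samples and 258 without the 4.

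LMNB2, which encodes lamin B2, and LOC100138660 inside it were lower in Holstein at 2 h. LMNB2 was at 33.3, 26.6, 15.4 and 46.6 CPM in Angus and 14.9, 12.3, 11.4 and 12.5 in Holstein, without overlap, a log2 difference of -1.25 ± 0.29 (SE, adjusted p = 0.000507). LOC100138660 had -1.25 ± 0.33 (SE, adjusted p = 0.00257). At 0 h LMNB2 had -1.23 (adjusted p = 0.0017) with all samples and -0.79 (adjusted p = 0.301) without the 4. Outside LOC100138660, LMNB2 had a mean of 6258 scaled covered bases in Angus and 2504 in Holstein (exact permutation test p = 0.0286, the smallest that 4 against 4 allows).

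NPDC1 and LOC100848128 were higher in Holstein at 2 h. NPDC1 was at 2.43, 2.02, 5.203 and 1.03 CPM in Angus and 9.33, 8.89, 5.89 and 9.76 in Holstein, with Angus 3 the nearest to the Holstein samples. The log2 differences were 1.66 ± 0.43 (SE, adjusted p = 0.00248) and 1.7 ± 0.46 (SE, adjusted p = 0.00347). LOC100848128 was at 1.01, 1.07, 2.63 and 0.46 CPM in Angus and 4.08, 5.11, 3.19 and 4.53 in Holstein at 2 h. It was near the level limit in Angus and above it in every Holstein sample. It could therefore pass the limit through the breed in which it was higher. At 0 h NPDC1 had 1.6 (adjusted p = 0.0344) with all samples and 1.07 (adjusted p = 0.523) without the 4.

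The receptor tyrosine kinase gene EPHB4 and ZAN, which encodes the sperm protein zonadhesin, shared 214 bases and were both lower in Holstein at 8 h. EPHB4 was at 51.9, 35.1, 33.5 and 53.2 CPM in Angus and 23.8, 20.9, 16.6 and 16.4 in Holstein. ZAN was at 6.36, 4.42, 4.44 and 6.81 and 2.75, 2.68, 2.26 and 1.95. For both genes the breeds did not overlap. The log2 differences were -1.16 ± 0.20 (SE, adjusted p = 2.54e-06) and -1.18 ± 0.22 (SE, adjusted p = 1.2e-05).

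TTK, a kinase of the spindle checkpoint inside LOC100847721, was lower in Holstein at 0 h (-1.17, adjusted p = 0.00152) and at 2 h (-1.07, adjusted p = 0.00832), and so was LOC100847721 (-1.24 and -1.09). Without the 4 samples both calls at 0 h were lost (-0.84, adjusted p = 0.315, for TTK and -0.89, adjusted p = 0.263, for LOC100847721), and those at 2 h were kept (-1.24 and -1.27). FRY and both genes inside it, LOC100848220 and LOC100335357, were higher in Holstein at 2 h (1.27, 1.02 and 1.04). LIMS2, a focal adhesion protein, and GPR17 inside it were higher at 8 h (1.03 and 1.17). These are log2 differences by edgeR's likelihood-ratio test, and the TTK and FRY pairs were chosen after their values were seen. GPR17 was near the level limit at 8 h. It was at 0.354, 0.955, 1.07 and 0.46 CPM in Angus and 1.98, 1.19, 1.63 and 1.6 in Holstein. Over the 3 hours every Holstein sample was above 1 CPM for GPR17, and few Angus samples were. GPR17 thus passed the level limit mainly through the breed in which it was higher, so its breed difference is a description.

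TXNIP and LOC100848155 differed between the breeds at 0 h. TXNIP was at 40.7, 44.2, 60.8 and 36.8 CPM in Angus and 88.5, 114, 119.6 and 125 in Holstein. The log2 differences were 1.31 ± 0.18 (SE, adjusted p = 5.35e-10) and 1.55 ± 0.23 (SE, adjusted p = 1.05e-08), and without the 4 samples 1.1 (adjusted p = 0.000565) and 1.31 (adjusted p = 0.000772).

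RGS4 and RGS5, regulators of G protein signalling, were both called at 0 h, with RGS4 inside the RGS5 row and holding 95.1% of its coverage. RGS4 was at 7.702, 7.51, 9.26 and 4.65 CPM in Angus and 8.84, 23.3, 14.9 and 24.7 in Holstein. Holstein 1 lay inside the Angus range. The log2 differences were 1.32 ± 0.33 (SE, adjusted p = 0.00245) and 1.33 ± 0.39 (SE, adjusted p = 0.0108), and 0.54 (adjusted p = 0.432) and 0.48 (adjusted p = 0.733) without the 4 samples, of which 2 were the highest Holstein samples.

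The widest split between partners across the breeds at 0 and 8 h was at IGFBP7, a secreted protein that binds insulin-like growth factors, and POLR2B, a core subunit of RNA polymerase II. They shared 81 bases tail to tail. IGFBP7 was at 3.25, 13.9, 17.4 and 5.06 CPM in Angus and 34.6, 59.96, 37.9 and 18.4 in Holstein at 8 h, without overlap. POLR2B was at 98.3, 102, 106 and 105 and 97.6, 104, 105 and 103. The log2 differences of IGFBP7 were 1.99 ± 0.52 (SE, adjusted p = 0.00415), 1.9 (adjusted p = 0.00738) and 1.94 (adjusted p = 0.00582) at 0, 2 and 8 h, beside 0.01, -0.01 and 0 for POLR2B. IGFBP7 had 1.7 (adjusted p = 0.115) at 0 h without the 4 samples.

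In some pairs the log2 differences of the 2 genes between the breeds had opposite signs, and in GLIPR1 with KRR1 (8 h) and LOC100336584 with CIDEA (2 h) both genes passed the adjusted p. GLIPR1 was higher in Holstein at 8 h (log2 1.04, adjusted p = 0.00916), at 8.49, 9.25, 11.1 and 8.66 CPM against 3.24, 6.31, 6.26 and 2.48 in Angus. KRR1, needed for the small ribosomal subunit, was lower (log2 -0.37, adjusted p = 0.00577), at 25.3, 24.9, 25.5 and 23.9 against 33.2, 31.2, 29.1 and 36.1, and neither gene overlapped between the breeds. MED11, a subunit of the Mediator complex, and LOC100848842 had opposite signs at 8 h (log2 -0.36, adjusted p = 0.133, and log2 1.08, adjusted p = 0.00391, in that order), of which only LOC100848842 was called; it also rose at 2 h (log2 1.26, adjusted p = 2.73e-05). FIGNL1, a DNA repair ATPase, was lower in Holstein at 0 h (log2 -1.09, adjusted p = 0.0119, and -1.34 at 2 h) and LOC100337102 was not called (log2 0.25, adjusted p = 0.552). FIGNL1 had -0.59 (adjusted p = 0.458) at 0 h without the 4 samples. LOC100336584 (log2 2.04, adjusted p = 0.000427) and the lipid droplet gene CIDEA (log2 -0.46, adjusted p = 0.0152) also parted at 2 h. LOC100336584 was then at 0.228, 0.6, 0.849 and 0.197 CPM in Angus and 1.37, 2.2, 1.6 and 2.6 in Holstein. It thus passed the level limit mainly through the breed in which it was higher.

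With the fold limit left out, 54 pairs differed between the breeds the same way and 3 in opposite ways at 2 h, and 40 and 2 at 8 h. At 2 h the pairs numbered 90 and 11 with the 4 samples left out; DESeq2 gave 89 and 8 at 2 h and 75 and 5 at 8 h. NOB1 and WWP2, a head to head pair chosen after its values were seen, were among the opposite pairs at both hours, with -0.49 and 0.50 at 2 h. At 0 h, 31 pairs differed the same way and none in opposite ways by edgeR's likelihood-ratio test. Its quasi-likelihood test gave 18 and 0, DESeq2 gave 47 and 1, and 1 pair and 0 were left without the 4 samples. With an unadjusted p below 0.05 for both genes, 92 pairs at 0 h were alike and 9 opposite.

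FGF2 and NUDT6 moved as a pair between the breeds without reaching the 2-fold limit. At 8 h FGF2 was at 15.3, 16.4, 19.2 and 14.6 CPM in Angus and 21.4, 29.3, 26.4 and 42.95 in Holstein, and NUDT6 at 8.65, 9.36, 10.8 and 8.48 and 12.1, 16.5, 14.96 and 23.6. The Holstein samples were above the Angus samples for both genes, with Holstein 4 the highest. The log2 differences were 0.88 ± 0.21 (SE, adjusted p = 0.00121) and 0.85 ± 0.21 (SE, adjusted p = 0.00152), and at 0 h 0.86 (adjusted p = 0.00912) and 0.81 (adjusted p = 0.0173). At 0 h FGF2 was at 19.2, 19.5, 26.2 and 12.8 CPM in Angus and 24.5, 39.2, 30.5 and 44.9 in Holstein. For both genes Holstein 1 was below Angus 3, so the breeds overlapped at 0 h. Angus 4 was the lowest sample and Holstein 2 and 4 the highest, all 3 with other counting of COL1A1. Values without them are not given here for this pair.

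Whether the response to LPS differed between the breeds was tested as an interaction. At 2 h, 2 of 1188 members were called (0.168%, against 0.278% of all rows), and at 8 h 3 of 1190 (0.252%, against 0.0982%). With the animal as a block, since each animal was sampled at every hour, 12 members and 4 pairs were called at 2 h and 8 members and 3 pairs at 8 h. When the 4 samples were left out there were 4 members at 2 h (0.336%, against 0.266% of all rows) by edgeR's likelihood-ratio test. There were 0 at 8 h (against 0.0295%), where 30 members had an unadjusted p below 0.05. At 2 h the calls were 6 without Angus 3 (0.505%, against 0.396%). They were 1 without Angus 1, Angus 4 or Holstein 2 (0.084%, against 0.213%, 0.164% and 0.223%). At 8 h they were 6 without Angus 3 (0.505%, against 0.304%) and 5 without Holstein 1 (0.42%, against 0.103%). They were 1 without Angus 2 (0.084%, against 0.0735%) and 0 without Holstein 4 (against 0.00979%). For the block the share of all rows is not given here.

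MTSS1, which shapes membranes and binds actin, was at 1.39, 2.12, 2.21 and 1.91 CPM in Angus at 0 h and higher, at 4.38, 4.07, 3.44 and 3.75, at 2 h. In Holstein it was at 0.732, 1.94, 1.01 and 1.25 and 0.705, 0.851, 0.85 and 1.14. The breeds did not overlap at 2 h, and the interaction was -1.51 ± 0.37 (SE, adjusted p = 0.0136). Its tail to tail partner NDUFB9, a subunit of respiratory complex I, stood at 46.9, 49.6, 43.2 and 56.7 in Angus and 41.7, 44.3, 50.8 and 44.5 in Holstein at 2 h, with an interaction of -0.05. The interaction of MTSS1 without the 4 samples was -1.09 (adjusted p = 0.238).

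LOC100138596 rose more in Angus than in Holstein. It went from 4.798, 5.84, 4.98 and 5.49 to 24.7, 25.99, 27.98 and 21.3 CPM in Angus and from 9.18, 9.12, 7.71 and 6.92 to 16.9, 15.7, 14.3 and 14.4 in Holstein, so the breed that was lower at 0 h was higher at 2 h. The interaction was -1.35 ± 0.19 (SE, adjusted p = 2.3e-09). TRIM13, a ubiquitin ligase gene head to head with it over 1590 bases, had 0.07.

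IRF1 and LOC100848038 were called together at 8 h, the only pair so called. IRF1 was at 5.83, 4.02, 4.35 and 4.598 CPM in Angus and 2.78, 3.03, 3.35 and 2.803 in Holstein at 0 h, and at 16.7, 11.5, 13.7 and 7.91 and 16.7, 25.96, 17.5 and 19.8 at 8 h. The Holstein samples were thus the lower ones at 0 h and the higher ones at 8 h, with Angus 1 and Holstein 1 nearly equal at 8 h. The interactions were 1.32 ± 0.30 (SE, adjusted p = 0.0163) and 1.28 ± 0.28 (SE, adjusted p = 0.0081), and 1.31 (adjusted p = 0.418) and 1.32 (adjusted p = 0.293) without the 4 samples.

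PARP9 and DTX3L encode partner proteins of the interferon response and lie head to head with 143 shared bases. PARP9 was at 8.47, 7.61, 13.7 and 6.99 CPM in Angus and 18.3, 13.99, 22.4 and 22.5 in Holstein at 8 h, and DTX3L at 11.2, 10.4, 14.9 and 9.697 and 20.3, 16.1, 22.4 and 23.2. Every Holstein sample was above every Angus sample for both genes. DTX3L passed the interaction test with 1.01 ± 0.21 (SE, adjusted p = 0.00283), and PARP9 had 1.14 ± 0.29 (SE, adjusted p = 0.0714); with the animal as a block PARP9 had 1.16 (adjusted p = 7.97e-06). At 2 h both stood below 0 h, with log2 changes of -0.37 and -0.7, lower in 8 of 8 animals. DTX3L had 1.02 (adjusted p = 0.179) without the 4 samples. STAT2, the other interferon-stimulated member, had a log2 change of 0.11 at 8 h (adjusted p = 0.679). Of 33 tested interferon-stimulated genes 11 rose at 8 h and none fell.

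NR1D1 had an interaction of -0.94 ± 0.19 (SE, adjusted p = 0.00276) at 8 h that passed the adjusted p but not the 2-fold limit, at 16.2, 11.6, 16.8 and 15.3 CPM in Angus and 9.18, 8.02, 7.14 and 8.35 in Holstein, beside -0.28 for THRA.

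COL1A1 with LOC100847582 and SPARC with LOC100847681 were the most abundant tail to tail pairs, and ADAT1 with LOC788609 was among the most abundant nested pairs. SPARC, a collagen-binding matrix protein, was at 11660 (8169 to 12900) CPM at 0 h and its tail to tail partner LOC100847681 at 1259 (768 to 1352). The row of ADAT1, an enzyme that edits transfer RNA, was at 952 (795 to 1026) CPM and LOC788609 inside it at 2355 (2051 to 2615). Nearly all coverage of the ADAT1 row lay inside LOC788609. In Angus 1 at 0 h this was 251400 of 251700 scaled covered bases, with 323 outside, so the level of the row is not that of ADAT1 alone. COL1A1 and LOC100847582 overlapped over 98.1% of the shorter gene. COL1A1 stood at 8584, 8905, 10170 and 31860 CPM in Angus and 10800, 33840, 10310 and 48880 in Holstein at 0 h, with the 3 high values in the 3 samples with other counting.

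The fall of COL1A1 at 8 h rested on those samples. Its log2 change was -1.35 ± 0.35 (SE, adjusted p = 0.0031) with all samples and -0.27 (adjusted p = 0.212) without the 4, and LOC100847582 had -1.32 (adjusted p = 0.00312) and -0.28 (adjusted p = 0.199). More generally, the covered bases per count differed by over 1.5 times between samples in 25 of 944 members (2.65%) with over 200 counts in every sample, against 23 of 9050 other genes (0.254%). RPL7A, RPS27 and RPS25, genes of ribosomal proteins, were among the 25. LOC100847626, head to head with RN28S1, was another, and stood at 392 (50.9 to 1597) CPM at 2 h beside 764 (239 to 2989) for RN28S1, with Angus 3 the highest sample for both.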

How the data were processed

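RNA from 24 samples was sequenced. The authors removed reads with a median quality below 20, with over 3 uncalled bases or shorter than 25 bases, aligned the rest to the cattle genome UMD v3.1 with NextGENe 2.3.4, requiring over 85% of a read to match, and deposited for each sample the read counts per gene and the mean coverage signal per gene. The submitters' processing notes also name CASAVA 1.7. Whether strand was used in counting is not given in the sources used here.

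CPM values (counts per 1000000 counts of the sample) were computed from the deposited counts, with totals of 51014538 to 104406293 per sample. Members and gene lists were chosen with earlier results of these data known. Rows with 1 CPM or more in at least 50% of the samples compared were scaled by TMM and tested with edgeR 4.0.16 (R 4.3.3) by the generalized linear model likelihood-ratio test, with Benjamini-Hochberg adjustment over all rows. A call needed an adjusted p below 0.05, a fold change of 2 or more and an average above 1 CPM, as in the study. Of the 1192 members, 4, 2, 5, 10 and 3 did not pass the filter for LPS at 2 and 8 h and for the breeds at 0, 2 and 8 h.

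Agreement within pairs used log2(CPM + 1) differences of each animal, and coverage outside an inner gene was the difference of the covered bases of the 2 rows; it was used where rounding of the coverage could move it by less than 20%. The comparison pairs were genes on opposite strands with a gap of up to 1000 bases, and overlapping genes on 1 strand. The scripts were tested on simulated counts.

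The pairs described one by one were chosen by rule: in each comparison up to 4 pairs with both genes called and up to 3 with the widest difference and at least 1 call, the 2 most abundant pairs of each arrangement, textbook pairs, called members of the gene lists, pairs called in an interaction, TXNIP with LOC100848155 and COL1A1 with LOC100847582; others are named as chosen after their values were seen. Some pairs that the rule chose are not reported here.

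The 3 hours share animals: deviations from the group mean correlated at 0.659 (0 and 2 h) and 0.619 (0 and 8 h) within an animal, with a lowest value of 0.545 and 0.534, and at -0.218 and -0.206 between animals. Alternatives were edgeR's quasi-likelihood test, DESeq2 1.42.0, its size factors, no filter, the animal as a block, leaving out each animal, and leaving out the 4 samples with other counting. No sequence was read, since no genome of this build was used here.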

Additional observations from a re-analysis of the deposited data

Results flagged for a closer look

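With all samples the response to LPS was called different between the breeds, by the interaction term of edgeR's likelihood-ratio test, for LOC100138596 (-1.35) and MTSS1 (-1.51) at 2 h and for DTX3L (1.01), IRF1 (1.32) and LOC100848038 (1.28) at 8 h, as log2 of the Holstein over the Angus response. By the same test without the 4 samples with other counting, LOC100138596 kept its call (-1.35, adjusted p = 1.79e-06). MTSS1, DTX3L, IRF1 and LOC100848038 did not (adjusted p 0.238, 0.179, 0.418 and 0.293).

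Among the 486 groups of 4 samples of the 81 genes described one by one, 27 (5.6%) held a sample farther from the others than Dixon's 95% limit for 4 samples, where chance flags about 1 in 20. The values are CPM. Angus 3 at 2 h was such a sample for LOC100847626 (1597), RN28S1 (2989), ADAT1 (1067), LOC100847111 (4.24), CYP3A5 (55.4), CYP3A4 (25.9), COL1A1 (36880) and LOC100847582 (48250). Angus 4 at 0 h was one for COL1A1 (31860), LOC100847582 (41970) and MED11 (8.98). Both are samples with other counting of COL1A1, and the part of that counting in these values was not tested. Holstein 4 at 0 h, also one of these samples, stood apart for PTGS2 (14.04) and LOC100138376 (9.29).

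Holstein 2 at 2 h stood apart for DTX3L (5.94), PRICKLE1 (3.27), CD3EAP (21.05) and EGFLAM (9.35), and at 8 h for PRICKLE1 (9.19) and ERCC1 (33.0). Holstein 1 at 8 h stood apart for both genes of a nested pair, CORO7 (62.0) and VASN (60.2). Angus 3 stood apart at 8 h for CYP3A4 (119) and RGS4 (14.02) and at 0 h for SPARC (12030). The others were Angus 2 at 0 h for LOC100335751 (2.02), Holstein 3 at 0 h for NPDC1 (5.79) and Angus 4 at 8 h for ERCC1 (34.4).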

How the results depend on the processing

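Calls of members and of pairs with both genes called depended on the fold limit and on a few samples, and the agreement within pairs varied less. With the adjusted p alone, 235, 155, 147, 243 and 201 members and 55, 31, 31, 54 and 40 pairs passed for LPS at 2 and 8 h and for the breeds at 0, 2 and 8 h, and 9 members and 1 pair for the interaction at 2 h. The share of all rows is not given for the adjusted p alone. It is also not given for the other settings of this paragraph, except for the fits without the 4 samples, whose shares are above. Without that share the counts do not show whether members passed more or less often than other rows. Without the 4 samples with other counting there were 4 members and 1 pair for the breeds at 0 h, 61 and 15 at 2 h, and 4 and 1 (2 h) and 0 and 0 (8 h) for the interaction. Members at 1 CPM in all 24 samples gave 9 pairs for LPS at 2 h, 18 members and 4 pairs for the breeds at 0 h, 2 pairs at 8 h, and 1 member for the interaction at 2 h. The quasi-likelihood test gave 13 members and 2 pairs for the breeds at 8 h, and 1 (2 h) and 0 members and 0 pairs (8 h) for the interaction, with 44 and 43 members at an unadjusted p below 0.05. No filter gave 2 pairs for the breeds at 8 h, and DESeq2 gave 2 pairs for the interaction at 8 h. Under a replicate block of the animals the interaction gave 12 members and 4 pairs at 2 h and 8 and 3 at 8 h, and LOC100335751 (0.97), LOC100848842 (0.97) and LOC100847582 (-0.99) at 8 h fell short of the fold limit.

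Replicate numbers did not pair the breeds (mean correlation -0.112, -0.08 and -0.09), and a replicate block gave 26 members and 6 pairs, 38 and 11, and 25 and 6 at 0, 2 and 8 h. The share of all rows is not given for this block either. Leaving out each animal gave 35 to 38 members and 12 to 14 pairs (LPS 2 h), 18 to 25 and 5 to 7 (LPS 8 h), 18 to 50 and 4 to 11, 18 to 61 and 3 to 15, and 10 to 50 and 1 to 14 (breeds at 0, 2 and 8 h), and 1 to 6 and 0 to 1, and 0 to 6 and 0 to 2 (interaction at 2 and 8 h). For LPS at 2 h these were 2.95% to 3.19% of members, against 2.67% to 3.08% of all rows. At 8 h they were 1.51% to 2.1%, against 1.25% to 1.69%. The shares at the lowest and highest counts for the breeds and the interaction are given above. The mean r ran from 0.651 to 0.682, 0.605 to 0.639, 0.496 to 0.528, 0.506 to 0.545 and 0.505 to 0.544. Spearman's rho for LPS at 2 h was 0.505, and pairs with overlaps of 100 bases or more had an r of 0.565 and 0.589 for the breeds at 0 and 8 h. Measured by coverage outside VASN, the change of CORO7 at 2 h turned from 1.15 to -0.18; the cause was not tested. Among 99 calls of genes described one by one, 79 held by the quasi-likelihood test, 96 by DESeq2, 99 with its size factors, 92 with no filter, 90 with the block and 74 without the 4 samples. The 4 samples per group, a counting without known strand and the rounded coverage limit what the pairs can show.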
